A study of Bos grunniens and Bos grunniens x Bos taurus with 2 samples.

Results

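The genes described here encode parts of the axoneme, the microtubule core of sperm tails and motile cilia. They are all features of the yak annotation whose symbol begins with CFAP, DNAH, DNAI, RSPH, DRC, SPEF, RIBC or DYDC followed by a digit, which gave 54 of 26961 genes. The set holds 26 CFAP genes (cilia and flagella associated proteins), 11 DNAH genes (axonemal dynein heavy chains), 6 RSPH genes (radial spoke proteins), 3 DRC genes (dynein regulatory complex) and 2 each of DNAI, SPEF, RIBC and DYDC. By the known place of their products, 7 belong to the outer dynein arms, 10 to the inner dynein arms and their tethers, 3 to the nexin-dynein regulatory complex, 7 to the radial spokes, 7 to the central apparatus and 8 to the proteins inside the doublet microtubules, and 12 have another place or none that is settled. The symbols were matched for all 54 genes in the RefSeq table of another yak assembly, in which 14 of them overlap another coding gene, among them *DYDC1* and *DYDC2*, which overlap each other. The strand used in counting is not stated, and any part of reads from the overlapping gene in the counts of such pairs was not tested.

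An axoneme consists of doublet microtubules around a central pair. Outer and inner dynein arms on the doublets produce sliding, radial spokes and the central apparatus pass on regulatory signals, the nexin-dynein regulatory complex links neighbouring doublets, and proteins inside the doublets stabilise them. In the testis the tail is assembled in spermatids, while transcripts of many axonemal genes are already present in late spermatocytes. Multiciliated epithelial cells, as in the efferent ducts and airways, use a related but partly different set of dynein and spoke subunits, under the control of the transcription factor *FOXJ1*.

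Testis tissue of 1 yak (Bos grunniens) and 1 cattle-yak (the hybrid Bos grunniens x Bos taurus), both after sexual maturity, was frozen, thawed, dissociated with enzymes and captured in droplets, giving 1 library each. The label calls the source germ cells, but both libraries also held somatic cells. No treatment was applied, and each library stands for 1 animal, so no test, SD or p-value was possible and every difference between libraries is one between 2 animals and 2 captures. The authors typed 1127 yak cells as spermatogonial stem cells (SSC, 84 cells), spermatogonia (SPG, 486), early spermatocytes (early-SPC, 72), late spermatocytes (late-SPC, 261) and spermatids (SPT, 224). That typing used all genes, the axonemal ones included, so differences among the typed cells are given as a description.

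The yak library held 60816600 unique molecular identifiers (UMIs, which count captured transcript molecules) in 11991 cells, and the cattle-yak library 43774841 UMIs in 8930 cells. A total of 24 barcodes occurred in both libraries, 3 of them among the typed cells. Levels are summed UMIs of a gene in a group of cells, scaled to 1000000 UMIs of that group (CPM), with exact Poisson 95% intervals, and differences are log2 ratios of such levels with exact conditional intervals. All intervals hold counting error only, not the spread between cells or animals. UMIs were not scaled to transcript length, so a gene is compared between groups of cells and not with another gene. A gene counted as past 2-fold when its log2 ratio, with 1 CPM added to each side, was at least 1 in size and both groups together held at least 10 UMIs, and each such count stands beside the share of all genes past the same limit. A gene can reach 10 UMIs through the group where it is high, so such counts are descriptions.

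The authors' upper limits on genes and UMIs per cell remove cells of high depth. Of 792 yak cells above them, 333 lay in germ-like clusters, had a mitochondrial share below 30% and were not among the typed cells. These deep germ cells had a median of 28332 UMIs, against 1074 in the typed cells. They were split by clusters built without any axonemal gene, at a resolution chosen after the data had been seen, and each cluster is called by a leading gene. *CRABP1*-led cells (106 deep cells) carried the SPG markers at 3317 CPM, and their typed cells were 14 SPG. *SYCP3*-led cells (18) shared their cluster with 54 typed early-SPC, *PIWIL1*-led cells (34) with 57 late-SPC, *LHX1*-led cells (76) with 20 late-SPC, *LYZL4*-led cells (49) with 10 SPT and *CSTL1*-led cells (45) with 47 SPT. From the *PIWIL1*-led to the *CSTL1*-led cells the SPC marker list had levels of 5095, 2758, 1550 and 1039 CPM, and the SPT marker list of 708, 1416, 7855 and 19079 CPM. Markers therefore ordered the clusters the same way as the typed cells within them. The authors' typing also used known marker genes, so this agreement is not independent support for the order. The list of macrophage markers had 1172 and 1666 CPM in the *LYZL4*-led and *CSTL1*-led cells, of which *AIF1* alone, named after its value was seen, gave 1104 and 1613 CPM.

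In the typed cells, the summed level of the 54 genes was low up to early-SPC and high from late-SPC on. It was 673 CPM (549 to 816) in SSC, 813 (743 to 887) in SPG, 790 (690 to 900) in early-SPC, 6679 (6449 to 6915) in late-SPC and 5081 (4816 to 5356) in SPT. The intervals of SSC, SPG and early-SPC overlapped, and the log2 ratio was -0.27 (-0.59 to 0.04) for SSC against SPG (-0.55, -1.05 to -0.07, with cells thinned to 1000 UMIs) and -0.04 (-0.27 to 0.19) for early-SPC against SPG. Of 14 genes with at least 10 UMIs, 2 were past 2-fold higher and 3 lower in SSC than in SPG, beside 9.3% and 26.4% of all genes. Late-SPC stood 3.04 (2.90 to 3.18) above SPG on the log2 scale and SPT 2.64 (2.50 to 2.79) above SPG, while SPT stood 0.39 below late-SPC (-0.49 to -0.30). Per cell, the 54 genes took a median of 0.0657% of the UMIs in SPG, 0.575% in late-SPC and 0.415% in SPT. Without a single UMI of the set were 213 of 486 SPG but 6 of 261 late-SPC and 14 of 224 SPT, at median depths of 979.5, 1168 and 906 UMIs.

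**Figure D1:**
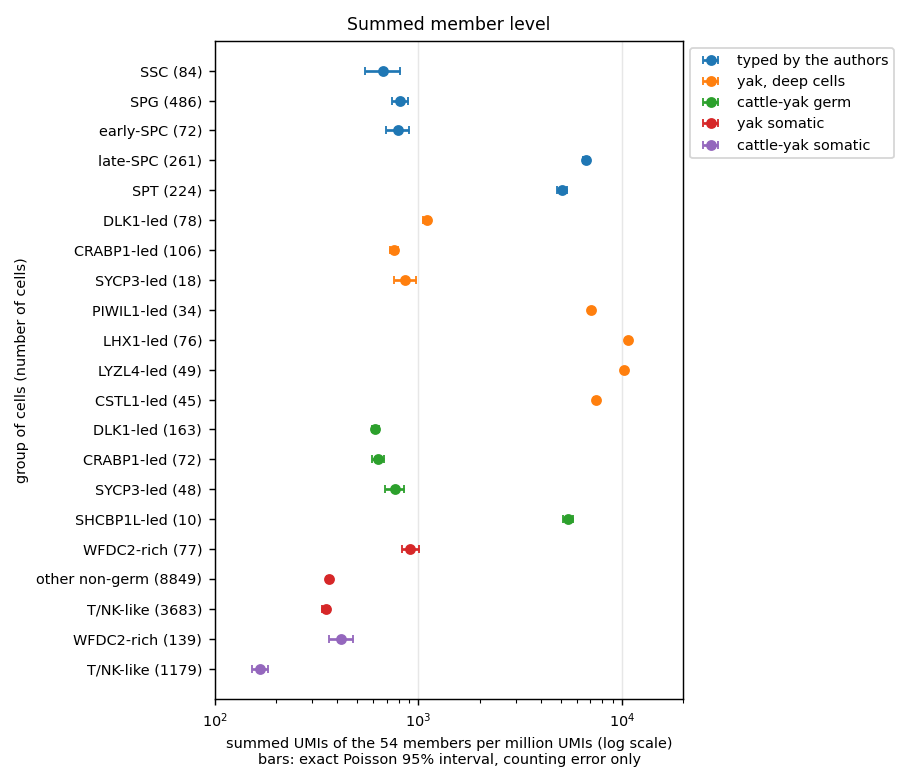
Summed UMIs of the 54 axoneme genes scaled to 1000000 UMIs (CPM, log scale) in each group of cells, with the number of cells in brackets and exact Poisson 95% intervals as bars. Typed late-SPC (6679 CPM) and SPT (5081 CPM) and the deep *PIWIL1*-led to *CSTL1*-led cells (7080 to 10702 CPM) lie far to the right of all spermatogonial and somatic groups, and the *SHCBP1L*-led cells (5421 CPM) are the cattle-yak group nearest to them.

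Between SPG and late-SPC nearly all counted genes of the set were higher in late-SPC. Of 40 genes with at least 10 UMIs, 38 were at least 2-fold higher in late-SPC and 1 was lower, when 25.6% of all genes were past 2-fold higher and 31.5% past 2-fold lower. In SPT against SPG, 31 of 37 genes were past 2-fold higher and 0 lower, beside 24.9% and 32.8% of all genes. In late-SPC against SPG, 14 genes had too few UMIs to count. The median log2 ratio of the 40 genes was 3.32, against -0.23 over all genes. *RSPH1*, a spoke head protein, had 3.23 CPM in SPG and 191 in late-SPC, and *DNAI1*, an outer arm intermediate chain, had 1.62 and 101 CPM. *CFAP161*, an inner microtubule protein, had 0 UMIs in SPG, which allows up to 4.85 CPM, and 107 CPM in late-SPC. By the lower bound of the ratio interval it was at least 17.3-fold higher. The dynein heavy chain *DNAH8* had 27.5 CPM in SPG and 302 in late-SPC, and the inner microtubule protein *RIBC2* 19.4 and 353 CPM. By functional group, 7 of 7 counted inner microtubule proteins, 8 of 8 inner arm genes, 5 of 6 outer arm genes, 3 of 3 DRC genes, 4 of 4 central apparatus genes and 3 of 4 spoke genes were past 2-fold higher. All counted inner arm, DRC and central apparatus genes had fewer than 10 UMIs in SPG. They reached the limit with the UMIs of late-SPC, where they were high, so these counts do not test a shared rise. The spoke protein gene *RSPH14* was the 1 gene past 2-fold lower, with 27.5 CPM in SPG and 6.30 in late-SPC, a log2 ratio of -2.12 (-4.54 to -0.34) on 17 and 3 UMIs. *DNAH11*, a heavy chain best known from airway cilia, had 12.9 and 14.7 CPM, and the interval of its log2 ratio, -1.51 to 1.84, included 0.

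Early-SPC did not yet carry the programme. Of the genes with at least 10 UMIs over both groups, 4 differed from SPG in it with a ratio interval off 0. *RSPH14* was among them, with 27.5 CPM in SPG and 3.51 in early-SPC. The share of all genes with an interval off 0 was not counted, so this number cannot be called particular to the set. Below 10 UMIs the interval of *DNAH3* was also off 0, with 2 UMIs in SPG and 6 in early-SPC (3.23 and 21.1 CPM). *CFAP300*, which takes part in dynein arm assembly, had 110 CPM in SPG and 249 in early-SPC, a log2 ratio of 1.18 (0.68 to 1.68), and gave 31.6% of the UMIs of the set there. The inner arm heavy chain *DNAH2* had 11.3 and 38.6 CPM, with a log2 ratio of 1.77 (0.27 to 3.38). *CFAP97* had 72.7 CPM in SPG and 7.02 in early-SPC, a log2 ratio of -3.37 (-6.46 to -1.44), before a level of 527 CPM in late-SPC. Over the set, 2 of 13 counted genes were past 2-fold higher and 5 lower in early-SPC, beside 22.2% and 40.4% of all genes.

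Late-SPC and SPT differed in the levels of single axoneme genes, as they did in many other genes. Of 43 counted genes, 7 were past 2-fold higher and 16 lower in SPT, beside 23.2% and 26.7% of all genes. The outer arms stood lower in SPT: *DNAH8* had 302 CPM in late-SPC and 95.7 in SPT, *DNAH17* 92.4 and 33.1, *DNAI1* 101 and 33.1, and 4 of 5 counted outer arm genes were past 2-fold lower. *RSPH1* had 191 and 29.5 CPM, and the central apparatus gene *CFAP54* had 96.6 and 22.1 CPM. *CFAP97D1*, known from the sperm axoneme, went the other way with 10.5 CPM in late-SPC and 364 in SPT, a 34.7-fold ratio (14.4 to 109). *DYDC2*, which carries a DPY30-like domain, had 1 UMI in late-SPC (2.1 CPM) and 41 in SPT (151 CPM), a ratio of 71.9 (12.2 to 2908), whereas its overlapping neighbour *DYDC1* had 239 and 81.0 CPM. *DNAH3*, an inner arm heavy chain, had 23.1 and 133 CPM, and *CFAP100*, part of a complex that tethers inner arms, had 0 UMIs in late-SPC and 44.2 CPM in SPT. In all, 29 of the 54 genes were highest in late-SPC, 15 in SPT and 1, *RSPH14*, in SPG, and 9 had fewer than 10 UMIs over the typed cells. Among all genes with that many UMIs, 20.5% were highest in late-SPC and 20.3% in SPT.

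The authors' late-SPC comprised a pair of their clusters, numbered 3 and 7, and the set split between them. Its summed level was 7250 CPM (6947 to 7563) in cluster 3 and 5735 (5391 to 6097) in cluster 7, and 15 of 36 counted genes were past 2-fold higher in cluster 3 and 2 lower, beside 26.7% and 19.3% of all genes. *RIBC2* had 516 CPM in cluster 3 and 83.4 in cluster 7, *CFAP58* 253 and 44.5, *DYDC1* 327 and 94.6, and *CFAP45* 172 and 50.1. *CFAP126* had 70.8 CPM against 0 UMIs, at least 3.16-fold higher in cluster 3. The inverse held for *DNAH2*, with 40.5 and 111 CPM, and *CFAP300*, with 287 and 590 CPM. Both genes already stood above SPG in early-SPC. *DNAH3*, which did so on few UMIs, went the other way, with 33.7 CPM in cluster 3 and 5.56 in cluster 7 (10 and 1 UMIs). *RSPH1* (148 and 261 CPM), *CFAP70* (60.7 and 122) and *CFAP97* (449 and 656) were also lower in cluster 3, with ratio intervals off 0. In early-SPC *RSPH1* and *CFAP70* had 0 UMIs and *CFAP97* stood below SPG.

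**Figure D2:**
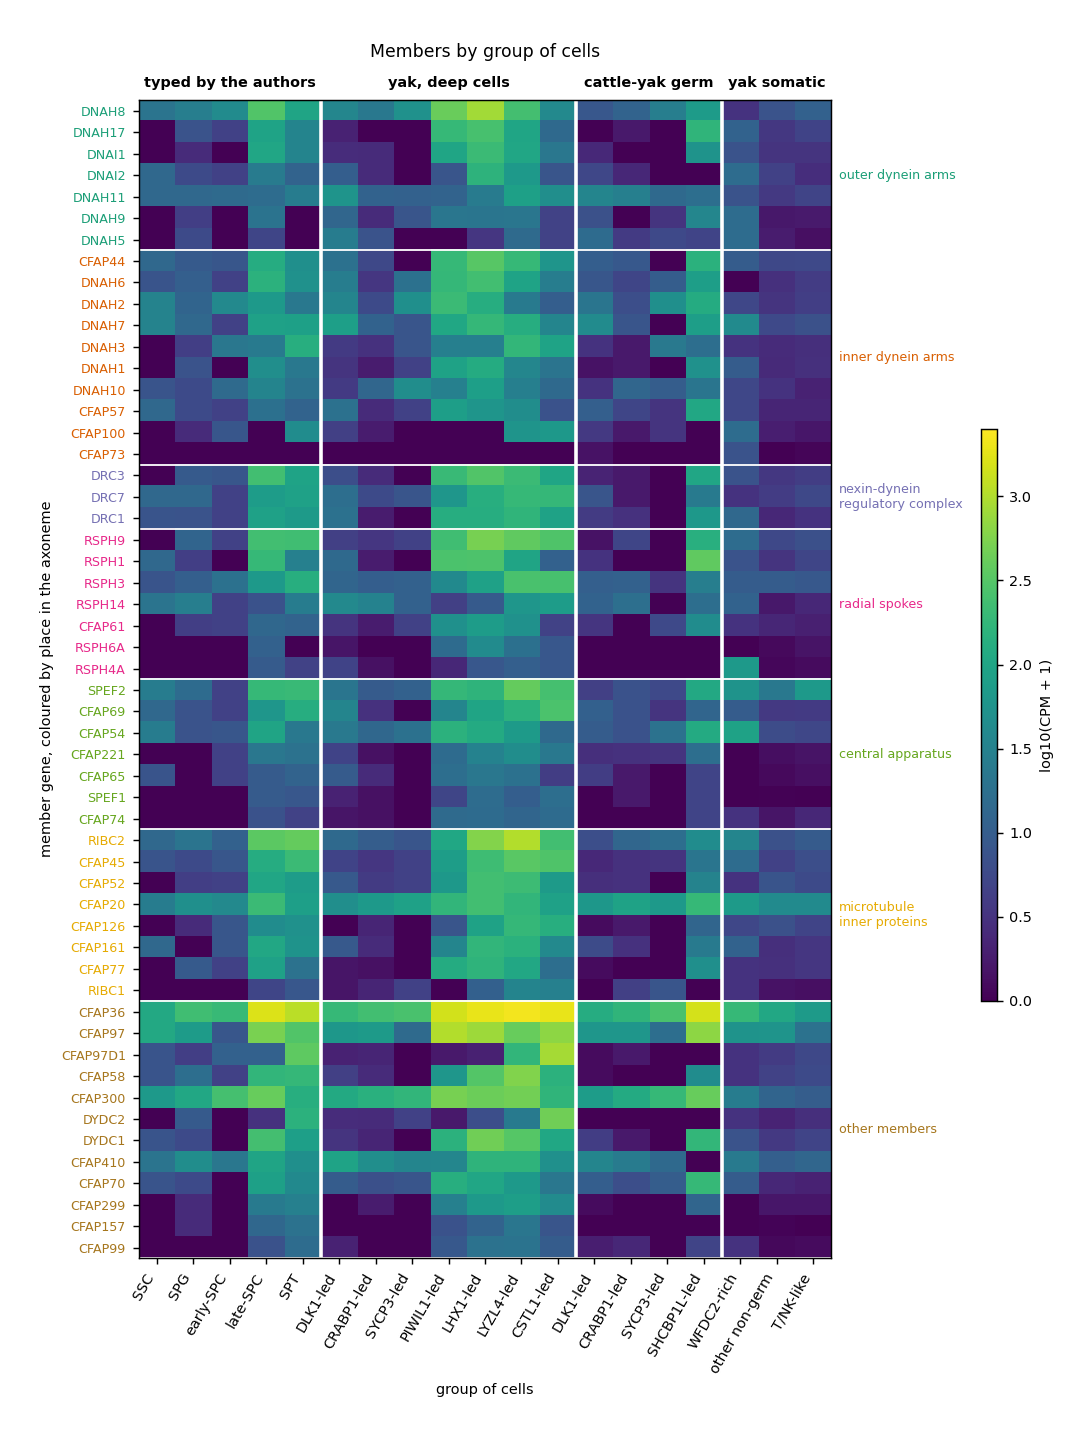
Level of each of the 54 genes (rows, grouped and coloured by place in the axoneme) in each group of cells (columns), as log10(CPM + 1), where dark purple is 0. Most rows turn from dark to bright at late-SPC and again at the deep *PIWIL1*-led cells, *RSPH4A* is brightest in the *WFDC2*-rich cells at 67.1 CPM, and *CFAP73* is at 0 in every typed and deep yak germ column.

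The deep germ cells resolved this order at far higher counts. The summed level was 759 CPM (725 to 795) in *CRABP1*-led cells, 862 (758 to 976) in *SYCP3*-led, 7080 (6944 to 7219) in *PIWIL1*-led, 10702 (10598 to 10808) in *LHX1*-led, 10279 (10132 to 10426) in *LYZL4*-led and 7443 (7311 to 7577) in *CSTL1*-led cells. Between *CRABP1*-led and *SYCP3*-led cells the log2 ratio was 0.18 (-0.01 to 0.37), and 4 of 20 counted genes were past 2-fold higher and 4 lower in the latter, beside 13.2% and 21.7% of all genes. The step lay between the *SYCP3*-led and *PIWIL1*-led cells, with a log2 ratio of 3.04 (2.86 to 3.23), and 40 of 44 counted genes were past 2-fold higher there and 0 lower, beside 31.2% and 26.1% of all genes. In *LHX1*-led against *PIWIL1*-led cells 25 of 50 genes were past 2-fold higher and 0 lower, beside 19.8% and 26.1% of all genes. In *LYZL4*-led against *LHX1*-led cells 11 of 53 were higher and 10 lower, beside 26.9% and 20% of all genes, and in *CSTL1*-led against *LHX1*-led cells 8 of 53 were higher and 28 lower, beside 28.5% and 41.4%. Within the *PIWIL1*-led cells the share of UMIs per cell ranged widely, with quartiles of 0.340%, 0.584% and 0.833%. It was nearly even in the *LHX1*-led cells (0.999%, 1.08% and 1.17%) and in the *CSTL1*-led cells (0.729%, 0.752% and 0.772%). Over the same 6 clusters the mitochondrial share of UMIs went from 16.0% in *CRABP1*-led to 12.2, 4.60, 1.96, 0.908 and 0.387% in *CSTL1*-led cells, and the part of this share in the ratios between clusters was not tested.

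The 53 genes with at least 10 UMIs over these clusters did not peak together. *CFAP73*, the remaining gene, had 0 UMIs in all 6 clusters. The highest level lay in *LHX1*-led cells for 21 genes, in *LYZL4*-led for 20, in *PIWIL1*-led for 6 (*CFAP300*, *CFAP54*, *CFAP57*, *CFAP70*, *CFAP97* and *DNAH2*) and in *CSTL1*-led for 6 (*CFAP100*, *CFAP69*, *CFAP97D1*, *DYDC2*, *RSPH14* and *SPEF1*). Among all genes with that many UMIs, 15% were highest in *LHX1*-led, 11.4% in *LYZL4*-led, 13.1% in *PIWIL1*-led and 18% in *CSTL1*-led cells. No gene of the set was highest in *CRABP1*-led or *SYCP3*-led cells, where 22.3% and 20.3% of all genes were highest. *CFAP44*, *CFAP69*, *CFAP70*, *DRC1* and *SPEF1*, like *CFAP221*, *CFAP65*, *CFAP74* and *CFAP99*, lie outside the rule for named genes and were named after their values had been seen.

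**Figure D3:**
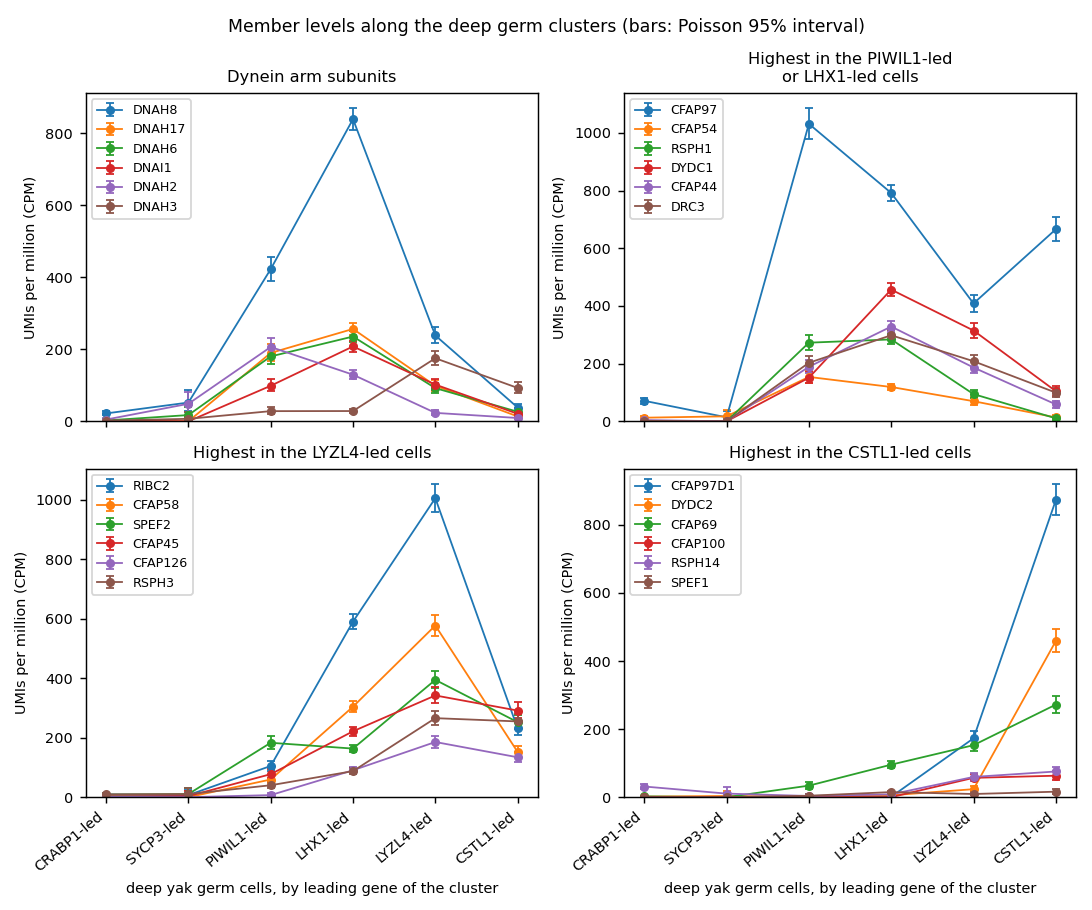
Level (CPM, linear axis) of 24 genes in the 6 deep yak germ clusters, ordered by their markers, with exact Poisson 95% intervals as bars. The upper panels show dynein, spoke and CFAP genes with their highest level in *PIWIL1*-led or *LHX1*-led cells (*DNAH8*, 839 CPM) and *DNAH3*, and the lower panels genes highest in *LYZL4*-led (*RIBC2*, 1005 CPM) or *CSTL1*-led cells (*CFAP97D1*, 873 CPM).

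The outer dynein arm genes of sperm peaked early. *DNAH8*, an outer arm heavy chain of sperm, had 21.9 CPM in *CRABP1*-led, 52.1 in *SYCP3*-led, 422 in *PIWIL1*-led, 839 (810 to 868) in *LHX1*-led, 238 in *LYZL4*-led and 38.3 in *CSTL1*-led cells. Its partner *DNAH17* had 0 UMIs in the *CRABP1*-led and *SYCP3*-led cells and then 190, 256, 98.7 and 13.6 CPM. The intermediate chains followed with a lag between them: *DNAI1* had 98.7, 208, 102 and 21 CPM in the last 4 clusters, whereas *DNAI2* had 6.90 CPM in *PIWIL1*-led and 158 in *LHX1*-led cells, 22.9-fold apart (12.4 to 48.0). As a group, the 7 outer arm genes had 749, 1509, 627 and 135 CPM, and 6 of 7 were past 2-fold lower in *CSTL1*-led than in *LYZL4*-led cells, beside 33.9% of all genes. *DNAH11* departed from them, with 11, 25.3, 85.6 and 47.6 CPM, and so did *DNAH5*, with at most 14.2 CPM, in *LYZL4*-led cells. *DNAH5*, *DNAH9* and *DNAH11* are the outer arm heavy chains of airway cilia, and *DNAH9* had 20.7, 20.3, 20.7 and 3.71 CPM.

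Inner arm heavy chains followed separate courses. *DNAH2* was the earliest, with 4.88 CPM in *CRABP1*-led, 48.7 in *SYCP3*-led, 206 in *PIWIL1*-led, 129 in *LHX1*-led, 23.5 in *LYZL4*-led and 9.27 in *CSTL1*-led cells. *DNAH6* (180, 235, 92.2 and 26.6 CPM from *PIWIL1*-led to *CSTL1*-led), *DNAH1* (89.0, 124, 34.9 and 19.2) and *DNAH7* (106, 184, 130 and 34.6) peaked in *LHX1*-led cells, as did *DNAH10*, at 83.0 CPM, which had 45.2 CPM already in *SYCP3*-led cells. *DNAH3* was highest in *LYZL4*-led cells: it had 28.3 and 28.5 CPM in *PIWIL1*-led and *LHX1*-led cells, then 175 in *LYZL4*-led and 92.7 in *CSTL1*-led cells, and the step was 6.13-fold (4.91 to 7.71). *CFAP100* had 0 UMIs in *PIWIL1*-led and *LHX1*-led cells and 56.7 and 63.0 CPM in the *LYZL4*-led and *CSTL1*-led cells, at least 56.6-fold above the *LHX1*-led ones. In the order of the markers, the highest level of *DNAH2* thus came before those of *DNAH8* and *DNAH6*, and those of *DNAH3* and *CFAP100* came after them. In the typed cells *DNAH2*, *DNAH8* and *DNAH6* were all highest in late-SPC, and *DNAH3* and *CFAP100* in SPT.

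Radial spoke genes also differed in the cluster of their highest level. The spoke head gene *RSPH1* had 0 UMIs in *SYCP3*-led cells, 273 CPM in *PIWIL1*-led, 284 in *LHX1*-led, 94.4 in *LYZL4*-led and 10.5 in *CSTL1*-led cells, and its first step was at least 21.2-fold. *RSPH9*, also of the spoke head, had 224, 497, 373 and 291 CPM. *RSPH3*, of the spoke stalk, had 40.0, 87.5, 266 and 255 CPM. *RSPH14* had 31.3 CPM in *CRABP1*-led cells, 3.45 in *PIWIL1*-led, 8.27 in *LHX1*-led, 59.5 in *LYZL4*-led and 75.4 in *CSTL1*-led cells, so it was lowest in the *PIWIL1*-led cells. *RSPH6A*, the testis paralog of *RSPH4A*, reached 42.7 CPM in *LHX1*-led cells, and *RSPH4A* itself stayed between 1.38 and 9.82 CPM in the last 4 clusters.

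The nexin-dynein regulatory complex genes were highest in *LHX1*-led or *LYZL4*-led cells. *DRC3* had 203, 298, 208 and 99.5 CPM from *PIWIL1*-led to *CSTL1*-led cells, *DRC1* 131, 131, 167 and 89.0, and *DRC7* 60.7, 134, 187 and 181 CPM. In the central apparatus, *CFAP54* was early (154, 119, 69.8 and 13.6 CPM), *SPEF2* was highest in *LYZL4*-led cells (183, 163, 394 and 252 CPM) and *CFAP69* had its highest level in *CSTL1*-led cells (33.8, 95.5, 153 and 272 CPM). These 3 genes of a single structure thus had their maxima in 3 different clusters.

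Genes of the proteins inside the doublets differed between *PIWIL1*-led and *LHX1*-led cells, where 6 of 8 genes were past 2-fold higher in the latter, beside 19.8% of all genes. *RIBC2* had 105 CPM in *PIWIL1*-led, 590 in *LHX1*-led, 1005 (960 to 1052) in *LYZL4*-led and 231 in *CSTL1*-led cells. *CFAP126* had 6.90, 90.5, 185 and 134 CPM and *CFAP45* 77.3, 221, 342 and 291 CPM. As a group the 8 genes had 578, 1716, 2211 and 898 CPM. Their summed maximum lay in *LYZL4*-led cells, with *RIBC2* alone at 1005 CPM. That of the outer arm genes lay in *LHX1*-led cells, with *DNAH8* alone at 839 CPM. By gene, *CFAP161*, *CFAP20*, *CFAP52* and *CFAP77* were highest in *LHX1*-led cells and the other 4 doublet genes in *LYZL4*-led cells. Of the outer arm genes, 4 were highest in *LHX1*-led and 3 in *LYZL4*-led cells. *CFAP58*, with no settled place here, was also highest in *LYZL4*-led cells, at 59.3, 304, 577 and 152 CPM.

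The last cluster was marked by 2 genes of the set. *CFAP97D1* had 0.690 CPM in *PIWIL1*-led, 1.07 in *LHX1*-led, 173 in *LYZL4*-led and 873 (828 to 919) in *CSTL1*-led cells, steps of 162-fold (62.7 to 598) and 5.05-fold (4.47 to 5.72). *DYDC2* had 0.690, 5.60, 23.5 and 459 CPM (426 to 493), the last step being 19.6-fold (14.4 to 27.3). No other gene of the set was past 2-fold higher in *CSTL1*-led than in *LYZL4*-led cells: the count was 2 of 53 higher and 31 lower, beside 17.1% and 33.9% of all genes. *DYDC1*, whose gene overlaps *DYDC2*, had 151, 457, 315 and 104 CPM. *CFAP97* had a dip, at 1031, 791, 409 and 666 CPM, and was the 1 gene of the set that stood below both neighbouring clusters in *LYZL4*-led cells with the intervals of both ratios off 0. In the same sense, 13 genes stood above both neighbours there, among them *RIBC2*, *CFAP45*, *CFAP58*, *DNAH3* and *SPEF2*. The share of all genes that stood above or below both neighbours was not counted, so neither count can be called particular to the set.

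In summed level, deep cells stood close to or somewhat above the typed cells of the same cluster. Deep against typed cells had a log2 ratio of 0.27 (0.17 to 0.36) in the *PIWIL1*-led cluster, 0.18 (0.09 to 0.28) in the *LHX1*-led, -0.03 (-0.21 to 0.16) in the *LYZL4*-led and 0.26 (0.14 to 0.39) in the *CSTL1*-led cluster. Levels without *CFAP36*, *CFAP97*, *CFAP20*, *CFAP300* and *CFAP410* were also taken. Deep and typed cells then had 3873 and 2681 CPM in the *PIWIL1*-led and 7155 and 5420 in the *LHX1*-led cluster. They had 6843 and 7279 CPM in the *LYZL4*-led and 4552 and 3910 in the *CSTL1*-led cluster. Past 2-fold higher in the deep cells were 12 of 44 genes in the *PIWIL1*-led, 15 of 50 in the *LHX1*-led, 20 of 53 in the *LYZL4*-led and 8 of 49 in the *CSTL1*-led cluster, beside 20.5%, 33.9%, 51.5% and 21.2% of all genes. Past 2-fold lower were 1, 1, 3 and 6 genes, beside 4.37%, 9.75%, 13% and 13.8%. Outer and inner arm genes were both among the higher ones. In the *PIWIL1*-led cluster *DNAH8* was 2.49-fold (1.71 to 3.78) and *DNAH17* 3.14-fold (1.68 to 6.61) higher in deep cells. Of the inner arms, *CFAP44* was 2.84-fold (1.56 to 5.76) and *DNAH1* 2.94-fold (1.23 to 9.21) higher there. In the *LHX1*-led cluster *DNAH8* was 2.13-fold (1.56 to 2.99), *DNAH17* 3.72-fold (1.80 to 9.29) and *DNAI2* 4.01-fold (1.56 to 14.8) higher. *CFAP44* was 2.09-fold (1.28 to 3.66) and *DNAH10* 4.22-fold (1.16 to 35.0) higher in the same cluster. The ratio interval of the outer arm gene *DNAI1* included equal levels in both clusters. The typed side of the *LYZL4*-led cluster held only 10 cells and 240 UMIs of the set, so its calls rest on few UMIs. *CFAP65*, for example, counted as higher in its deep cells on 32 against 0 UMIs, with a lower log2 bound of -3.29. The larger ratio of all deep against all typed cells, 1.28 (1.24 to 1.32), with 45 of 53 genes past 2-fold higher beside 17% of all genes, and 0 lower, beside 16.2%, compares different mixtures of these clusters. Most typed late-SPC and SPT, 178 and 164 cells, lay together in a further cluster with a median of 895 UMIs and 4420 CPM (4243 to 4602), which the clustering did not divide. When every cell was thinned to 1000 UMIs, a cell carried a median of 8 genes of the set in *LHX1*-led and *LYZL4*-led cells, 5 in *PIWIL1*-led and *CSTL1*-led cells and typed late-SPC, 4 in SPT, 1 in SPG and 0 in *CRABP1*-led and *SYCP3*-led cells. Cells below 1000 UMIs had to be left out, 97 of 261 late-SPC and 126 of 224 SPT among them.

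A further cluster with spermatogonial markers held other axoneme genes. A *DLK1*-led cluster, whose other leading genes were *PIWIL4*, *MORC1* and *SPOCD1*, held 78 deep cells and 104 typed cells (15 SSC and 89 SPG), carried the SPG list at 2902 CPM and met no naming rule. The marker list of Leydig cells (LC) stood at 603 CPM in its deep cells against 61.4 in *CRABP1*-led cells and that of Sertoli cells (SC) at 222 against 40.2 CPM, and their part in what follows was not tested. Its deep cells had 1096 CPM (1048 to 1146) of the set, a log2 ratio of 0.53 (0.44 to 0.62) to the *CRABP1*-led cells, and 18 of 34 counted genes were past 2-fold higher and 1 lower, beside 21.5% and 9.56% of all genes. *DNAH7* had 82.4 CPM against 10.6 in *CRABP1*-led cells (log2 ratio 2.96, 2.36 to 3.62), *DNAH11* 57.3 against 10.6, *DNAH5* 26.2 against 6.50, *DNAH6* 26.7 against 2.44 and *CFAP69* 34.0 against 2.03. *DNAH8* and the late genes *CFAP97D1* and *DYDC2* were not among the genes past 2-fold. The cattle-yak *DLK1*-led cells (163 cells, 615 CPM) had 42.8 CPM of *DNAH7*, 34.7 of *DNAH11* and 14.4 of *DNAH5*, against 6.88, 28.2 and 2.75 CPM in the cattle-yak *CRABP1*-led cells. The Poisson intervals of *DNAH7* and *DNAH5* were apart there and those of *DNAH11* overlapped.

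Other genes of the axoneme pathway, taken from lists, were counted in the same way, beside the shares of all genes given above for each comparison. In late-SPC against SPG, 8 of 9 dynein assembly and docking genes, 12 of 17 intraflagellar transport genes and 23 of 26 other axoneme and tail genes were past 2-fold higher, and of 5 regulators 3 were higher and 1 lower. From late-SPC to SPT, 11 of 18 intraflagellar transport genes were lower and 1 higher. Over the 6 deep clusters the intraflagellar transport list had 1047, 1759, 3790, 3571, 3713 and 2255 CPM, and the other axoneme and tail list 411, 497, 3101, 6110, 9504 and 9975 CPM, so the latter kept its level in the *CSTL1*-led cells while the 54 genes stood lower. The examples that follow were chosen after their values were seen. *IFT88* (257 CPM) and *IFT74* (643 CPM) had their highest level in *SYCP3*-led cells, *IFT52* in *LHX1*-led cells (1165 CPM) and *IFT57* in *LYZL4*-led cells (1347 CPM). Of the regulators, *FOXJ1* had 4.14 CPM in *PIWIL1*-led, 32.6 in *LHX1*-led, 9.82 in *LYZL4*-led and 1.24 in *CSTL1*-led cells, *RFX2* had 16.6, 44.0, 20.7 and 7.42 CPM, *RFX1* had 35.9, 156, 355 and 172 CPM, and *SOX30* had 52.4, 57.9, 128 and 294 CPM.

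Outside the germ line, *WFDC2*-rich cells carried the set above the other somatic cells. These 77 yak cells formed the cluster with the highest *WFDC2* level and had the epithelial marker list at 879 CPM, the Sertoli cell (SC) list at 849 and the Leydig cell (LC) list at 450 CPM, so their markers were mixed and they are called by their leading gene. Their summed level was 914 CPM (829 to 1005), against 363 (356 to 369) in 8849 other non-germ yak cells, a log2 ratio of 1.33 (1.19 to 1.47). Of 48 counted genes, 28 were past 2-fold higher and 3 lower, beside 16.8% and 20.1% of all genes, and outer arm genes were higher in 6 of 7 cases.

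A spoke head gene led this difference. *RSPH4A* had 31 UMIs and 67.1 CPM (45.6 to 95.3) in them, 5 UMIs and 0.153 CPM in other non-germ cells (440-fold, 170 to 1449), and at most 9.82 CPM in the deep germ clusters. *CFAP54* had 91.0 CPM against 5.25 (17.3-fold, 12.1 to 24.4), *DNAH7* 41.1 against 4.70 (8.76-fold), *DNAH9* 15.2 against 0.671 (22.6-fold) and *DNAH5* 15.2 against 0.793 (19.1-fold). Several genes high in germ cells were near or at 0: *DNAH8* had 1 UMI (2.17 CPM), *RSPH6A* and *DNAH6* had 0 UMIs, which allows up to 6.50 CPM, and *CFAP97D1* and *DYDC2* had 2.17 CPM each. *DNAH17* was an exception, with 5 UMIs and 10.8 CPM. *CFAP54* and *DNAH7* were high in both kinds of cell, whereas *RSPH4A* stood above every deep germ cluster.

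**Figure D4:**
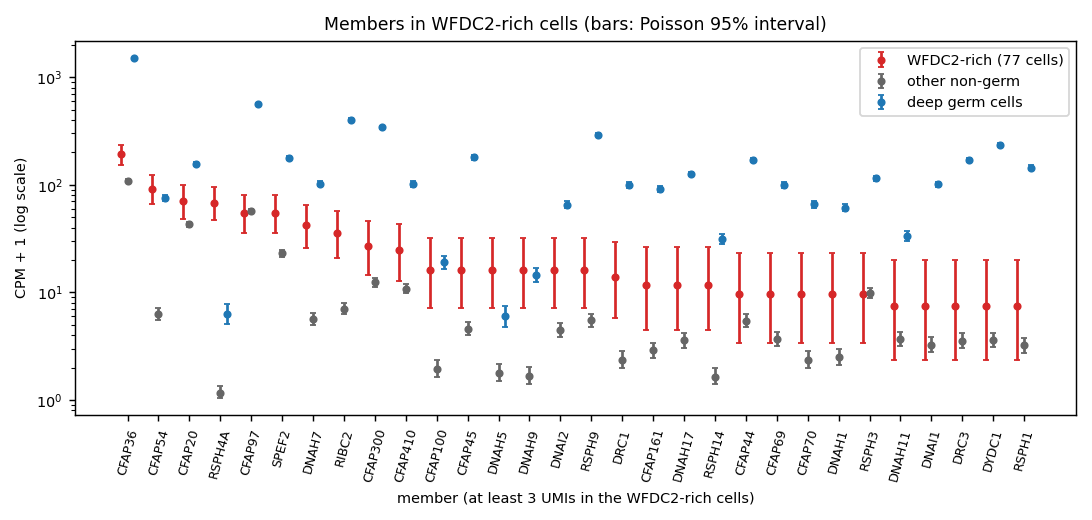
Level (CPM + 1, log scale) of the 30 genes with at least 3 UMIs in the 77 yak *WFDC2*-rich cells and at least 10 in these and other non-germ cells together, beside other non-germ yak cells and deep germ cells, with exact Poisson 95% intervals as bars. *RSPH4A* (67.1 CPM), *CFAP54*, *DNAH5* and *DNAH9* lie above both other groups, and in the other genes shown the deep germ cells lie highest. In the deep *PIWIL1*-led cells alone, *CFAP54* (154 CPM) and *DNAH9* (20.7 CPM) were higher than in the *WFDC2*-rich cells. *DNAH5* was likewise higher in the deep *DLK1*-led cells than in the *WFDC2*-rich cells.

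*FOXJ1* had 106 CPM (78.5 to 140) in *WFDC2*-rich cells and 6.96 in other non-germ cells. Its 49 UMIs lay in 11 cells with a median of 22071 UMIs, whereas the 66 cells without a *FOXJ1* UMI had a median of 2182.5. The axonemal level was 933 CPM (818 to 1060) in the former and 890 CPM (767 to 1028) in the latter, and *RSPH4A* had 70.9 and 62.6 CPM in them. Shallow cells without a *FOXJ1* UMI may still hold its RNA, so any link of the set to *FOXJ1* was not tested by this split. In the cattle-yak library 139 *WFDC2*-rich cells, an unnamed cluster, had 417 CPM (364 to 475) of the set, with 634 CPM (516 to 770) in 10 cells with a *FOXJ1* UMI and 327 CPM (272 to 389) in the other 129. Median depths of these 10 and 129 cells were 13630 and 1413 UMIs, so depth and *FOXJ1* cannot be told apart here. Over all 139 cells *RSPH4A* had 11.1 CPM, *CFAP54* 24, *DNAH7* 12.9 and *DNAI2* 18.4 CPM. Against the cattle-yak SC-like cells the summed log2 ratio was 0.20 (-0.14 to 0.55), with 3 of 7 genes past 2-fold higher and 0 lower, beside 20.7% and 16.9% of all genes. *CFAP73*, an inner arm tether with 0 UMIs in the yak germ clusters, had 12 UMIs and 22.1 CPM in these cells, of only 16 UMIs in the whole cattle-yak library and 4 in the yak library, 3 of which lay in its *WFDC2*-rich cells.

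In droplet data, free RNA can add UMIs to cells that do not express a gene, and its part in the levels below was not tested. T/NK-like cells, lymphocytes without motile cilia, had 350 CPM (337 to 363) of the set in the yak library and 167 CPM (153 to 182) in the cattle-yak library. *DNAH8* had 10.3 CPM in the yak T/NK-like cells and 0 UMIs in the cattle-yak ones, which allows up to 0.990 CPM. Thinned to 1000 UMIs, 1.03% of yak T/NK-like cells had a *DNAH8* UMI, against 24.4% of late-SPC, and 0.401% had a *CFAP97D1* UMI, against 64.4% of *CSTL1*-led cells and 19.4% of SPT. Median depths before thinning were 1942 UMIs in T/NK-like cells, 1168 in late-SPC, 906 in SPT and 34389 in *CSTL1*-led cells. *CFAP36*, *CFAP97*, *CFAP20*, *CFAP300* and *CFAP410* were counted in most cell types, and *CFAP36* was found in 7.56% of thinned T/NK-like cells. Without these 5 genes the summed level was 198 CPM in yak T/NK-like cells, 135 in other non-germ cells, 550 in *WFDC2*-rich cells, 312 in SPG, 3804 in late-SPC and 3402 in SPT. *SPEF2* stood higher in T/NK-like than in EC-like (endothelial) cells, at 65.9 CPM (60.4 to 71.8) in yak and 35.6 CPM (29.2 to 43.0) in cattle-yak, against 3.58 CPM in yak EC-like cells. In the RefSeq table its neighbours are *PRLR* and *IL7R*, the latter a receptor gene of lymphocytes. Any part of reads from a neighbouring gene in the *SPEF2* counts was not tested.

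The libraries of yak and cattle-yak differed strongly in the set as a whole. Over all cells the summed level was 1892 CPM (1881 to 1903) in yak and 342 CPM (336 to 348) in cattle-yak, a log2 ratio of 2.47 (2.44 to 2.50), and 50 of 54 genes were past 2-fold higher in yak and 0 lower, beside 13.2% and 1.82% of all genes. In such sums fewer germ cells and less RNA per cell cannot be told apart. Germ-like cells numbered 1658 in yak and 301 in cattle-yak, with 6443 and 864 CPM. *CFAP97D1* had 2088 and 2 UMIs in them, *DYDC2* 984 and 0, *CFAP58* 2860 and 17 and *CFAP45* 2317 and 18, and 49 of 53 genes were past 2-fold higher in yak and 1 lower, beside 25.9% and 17.8% of all genes. The exception was *DNAH5*, with 4.31 CPM in yak and 10.5 in cattle-yak (log2 ratio -1.29, -1.81 to -0.77), and *DNAH11* had 29.9 and 30.8 CPM. Both genes were among those high in *DLK1*-led cells, which belong to the cattle-yak germ-like class but met no naming rule in yak. The germ-like cells of cattle-yak had a mitochondrial share of 20.1% against 6.26% in yak.

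Set side by side by cluster, the germ cells of both animals were much closer. *CRABP1*-led cells had 759 CPM in yak (149 cells) and 632 CPM in cattle-yak (72 cells), a log2 ratio of 0.26 (0.15 to 0.38), with 1 of 25 genes past 2-fold higher in yak and 3 lower, beside 8.24% and 6.30% of all genes. *DNAH11* had 9.74 CPM in yak and 28.2 in cattle-yak, a log2 ratio of -1.53 (-2.29 to -0.80), and *CFAP410* 46.9 and 24.8 CPM (0.92, 0.38 to 1.5). *SYCP3*-led cells had 825 CPM in yak (102 cells) and 764 CPM in cattle-yak (48 cells), a log2 ratio of 0.11 (-0.08 to 0.30). There 3 of 14 genes were past 2-fold higher in yak, *DNAH8* with 58.6 against 27.4 CPM among them, and 0 lower, beside 12.8% and 9.08% of all genes. *CFAP300* and *CFAP36* had 216 and 226 CPM in yak and 189 and 267 in cattle-yak *SYCP3*-led cells. Within cattle-yak, *SYCP3*-led against *CRABP1*-led cells had a log2 ratio of 0.27 (0.09 to 0.46), with 4 of 20 genes past 2-fold higher and 6 lower, beside 18% and 28.4% of all genes.

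Beyond the *SYCP3*-led stage the cattle-yak library held few cells with the programme. A *SHCBP1L*-led cluster of 81 cells was mixed, since 46 of them had no UMI of the set, and its 10 deep cells had 5421 CPM (5137 to 5716). These 10 cells carried the SPC list at 4694 CPM and the SPT list at 695 CPM, close in level to the yak *PIWIL1*-led cells, and were set beside them. The yak cells were higher by 0.39 (0.30 to 0.47) on the log2 scale, and 14 of 44 genes were past 2-fold higher in yak and 0 lower, beside 17.7% and 9.44% of all genes. Among the 14, the ratio intervals of *CFAP65*, *CFAP69*, *CFAP299*, *CFAP74*, *DNAI2* and *RSPH6A* included equal levels. Each of these had at most 3 UMIs in the 10 cattle-yak cells and reached 10 UMIs through the yak cells. *DNAH8* had 422 CPM in yak and 71.5 in cattle-yak, a 5.91-fold ratio (3.71 to 10.0). *CFAP45* had 77.3 and 19.9 CPM (log2 ratio 1.96, 0.70 to 3.61), and *CFAP410* had 35.2 CPM against 0 of 251820 UMIs, at least 2.32-fold higher in yak. The median log2 ratio of the 44 genes was 0.70, against 0.07 over all genes. Of the 30 genes within 2-fold, *DRC3* had 203 and 103 CPM, *DNAH2* 206 and 123 and *SPEF2* 183 and 111. *CFAP36* stood at 1464 and 1533 CPM, *DNAH17* at 190 and 167 and *DYDC1* at 151 and 175. *CFAP70* (133 and 187 CPM) and *RSPH1* (273 and 369 CPM) had lower levels in yak. *CFAP97D1*, *DYDC2*, *DNAI2* and *RSPH6A* had 0 UMIs in the 10 cells, which allows up to 11.9 CPM, while the yak *PIWIL1*-led cells had 0.690, 0.690, 6.90 and 14.5 CPM of them, so that only the last lay above that limit. The ratio interval of *RSPH6A* still reached down to 0.905-fold and so included equal levels. No cattle-yak cluster was led by the genes of the yak *LHX1*-led, *LYZL4*-led or *CSTL1*-led cells.

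**Figure D5:**
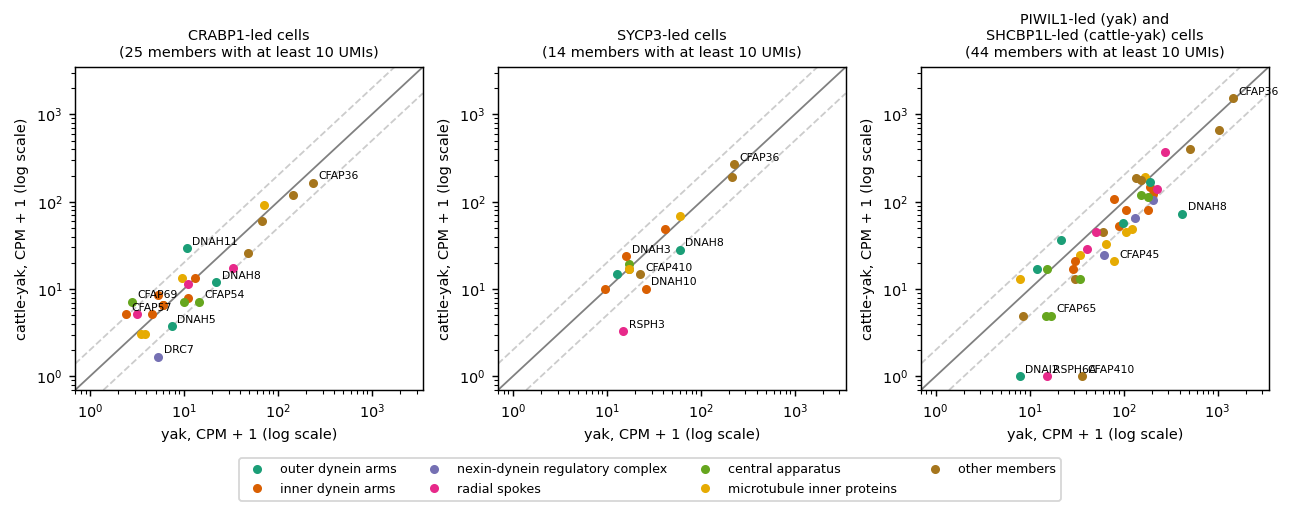
Level of each gene (CPM + 1, log scales) in yak (horizontal) against cattle-yak (vertical) in *CRABP1*-led, *SYCP3*-led and *PIWIL1*-led or *SHCBP1L*-led cells, coloured by place in the axoneme, for the 25, 14 and 44 genes with at least 10 UMIs. The solid line marks equal levels and the dashed lines 2-fold, most points lie between the dashed lines, and *DNAH8* (422 and 71.5 CPM) lies below them in the last panel.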

How the data were processed

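The authors deposited raw UMI counts for every gene in every barcode, made with Cell Ranger. The labels give version 2.1.1, the file headers 5.0.0 and the methods another version. The authors aligned the reads to BosGru3.0. Their limits on genes and UMIs (2 SD above the mean) were recomputed, and cells with a mitochondrial share of 30% or more were left out here. Cell types came from the authors' list of typed cells, and other cells were clustered with scanpy 1.11.5 (2000 variable genes without the axoneme genes, 30 components, 15 neighbours, Leiden resolution 1, and 2 for the finer clusters, added after the data had been seen). Markers named a cluster when at least 3 were enriched. Scrublet called 0 yak cells, so it did not work there, and 251 cattle-yak cells, and no cell was removed as a doublet.

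UMIs were summed by group of cells and gene. Printed log2 ratios carry no added CPM, except medians over genes, while calls used 1 added CPM, at least 10 UMIs and a 2-fold limit. The highest level that 0 UMIs allow was taken as 3 UMIs. Folds given as at least a value against 0 UMIs are lower bounds of the exact ratio interval. With 1 library per group no test was possible. All steps used Python 3.11.15 with scipy 1.17.1. Only the ratio, its interval and the thinning were tested on simulated data. The gene set and all lists were chosen with earlier results of these data known. The rule named the 6 genes of the set with the highest CPM in each main group, the 5 with the largest and the 5 with the smallest log2 ratio in each main comparison, and every DNAH and RSPH gene with at least 10 UMIs in typed or deep germ cells. It gave 45 of 54, and the others were named after their values had been seen. Sequences and coordinates were not used here.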

Additional observations from a re-analysis of the deposited data

How the results depend on the processing

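With 1 animal per group, intervals hold counting error only, and genes with few UMIs in the typed cells have wide ones. Of 91 values under other settings, 54 moved by less than the counting interval or kept a count within 1.5 times, 37 moved and 0 reversed, where a reversal means a change of sign of a ratio whose interval excluded 0. Ratios whose interval included 0 did change sign, SSC against SPG without the 5 widely counted genes (0.12) and early-SPC against SPG with cells weighted equally (0.18), thinned (0.17) or without the gene with the most UMIs (0.01). For the moved values the cause was not tested. The settings without the 5 widely counted genes, without the 24 shared barcodes and with single clusters were chosen after seeing the data. No paired analysis was possible because each animal gave 1 library.

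Log2 ratios of summed levels follow. Without the 5 widely counted genes they were 0.12 for SSC against SPG, 3.61 for late-SPC against SPG, 3.45 for SPT against SPG, -0.16 for SPT against late-SPC, 1.44 for deep against typed germ cells, 2.03 for WFDC2-rich against other non-germ cells, 3.41 for the libraries and 3.52 for germ-like cells of yak against cattle-yak. With each cell weighted equally they were 2.89 for late-SPC against SPG, 1.10 for deep against typed, 1.17 for WFDC2-rich, 1.80 for the libraries and 1.95 for germ-like cells. With cells thinned to 1000 UMIs they were -0.55 for SSC against SPG, with an interval (-1.05 to -0.07) off 0, -0.28 for SPT against late-SPC, 1.02 for deep against typed, 1.68 for the libraries and 2.18 for germ-like cells. Without the gene with the most UMIs they were 1.35 for deep against typed, 1.51 for WFDC2-rich, 2.59 for the libraries and 2.97 for germ-like cells. With mitochondrial genes out of the total they were 1.19 for deep against typed, 2.36 for the libraries and 2.67 for germ-like cells. After removing the top 10% of Scrublet scores they were 2.84 for SPT against SPG, -0.24 for SPT against late-SPC, 1.21 for deep against typed and 2.56 for the libraries. With a mitochondrial share below 20% they were 2.51 for the libraries and 2.49 for germ-like cells, and at Leiden resolution 0.5 they were 1.10 for deep against typed and 2.79 for germ-like cells. Deep against typed was 1.35 with limits on log10 values and 1.20 with all germ-like cells outside the typed ones. Germ-like yak against cattle-yak was 0.26 in the CRABP1-led clusters alone and 0.11 in the SYCP3-led clusters alone. With at least 30 UMIs over both groups, fewer genes could be counted, and 16 were past 2-fold higher in SPT than in SPG. With at least 10 UMIs the count was 31 of 37. The share of all genes at the limit of 30 UMIs was not counted.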
